A study of Homo sapiens with 10 samples.

Results

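The cytosolic ribosomal protein genes, named RPS for the small ribosomal subunit and RPL for the large one, were followed in 12Z cells by RNA sequencing. Members were the protein-coding genes whose symbol consists of RPS or RPL, a number and at most an A, X, Y or L with a further number, together with RPSA, RPLP0, RPLP1 and RPLP2. This rule found 86 of the 62750 gene identifiers in the count table, 34 of the small and 52 of the large subunit. After the filter on low counts, 82 members were tested among 15740 genes, 32 of the small and 50 of the large subunit. The members that did not pass were RPL10L, with 0 counts in every library, RPL3L, with 0 to 2 counts per library, and the Y-linked RPS4Y1 and RPS4Y2, which are counted here and not described.

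12Z is an immortalized epithelial line established from human peritoneal endometriosis, in which endometrium-like tissue grows outside the uterus. All cells were starved overnight in medium with charcoal-stripped serum, pretreated for 30 min with DMSO vehicle or with an inhibitor of the JNK stress kinases, and harvested after 6 h. The 5 groups were vehicle, IL1β (an inflammatory cytokine, 10 ng/ml), IL1β with 1 µM CDD-2728, IL1β with 10 µM CDD-2728 and IL1β with 1 µM CDD-3013, each with 2 libraries. No group received an inhibitor without IL1β, all groups are 1 cell line, and the labels do not say whether replicates came from separate cultures, so the p-values measure only the spread between these libraries.

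Each ribosome carries 1 copy of nearly every ribosomal protein, and cells make the proteins in matched amounts. Their messengers are among the most abundant and the shortest in a cell. Most start with a C followed by an unbroken run of pyrimidines, the 5′ terminal oligopyrimidine motif, through which the growth-sensing kinase mTOR and the RNA-binding protein LARP1 control their translation and stability. Unassembled RPL5 and RPL11 can bind MDM2 and so raise p53, which links ribosome assembly to the cell cycle.

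The start sites of the members the results turn on are shown because this shared start is the sequence feature by which the family is regulated as a group. Each line gives 15 bases before and 15 bases from the RefSeq transcription start (GRCh38.p14), 5′ to 3′ on the gene's strand, with the run of C and T from the start in capitals. The lines for RPL3, RPS27L and RPL7L1 hold no capitals because their listed starts do not meet the definition used, a C followed by at least 4 further pyrimidines. RPL3 has a run from its listed start that is too short for it, while RPS27L and RPL7L1 begin with a G.
RPL35, chr9:124861943-124861972, minus strand: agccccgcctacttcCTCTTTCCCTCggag
RPLP1, chr15:69452803-69452832, plus strand: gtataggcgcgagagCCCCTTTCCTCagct
RPS3, chr11:75399503-75399532, plus strand: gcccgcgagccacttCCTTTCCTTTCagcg
RPS6, chr9:19380222-19380251, minus strand: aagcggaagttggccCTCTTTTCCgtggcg
RPL13A, chr19:49487593-49487622, plus strand: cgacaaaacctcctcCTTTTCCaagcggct
RPL41, chr12:56116618-56116647, plus strand: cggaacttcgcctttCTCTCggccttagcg
RPL26, chr17:8383179-8383208, minus strand: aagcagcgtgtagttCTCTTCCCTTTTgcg
RPL22, chr1:6199581-6199610, minus strand: tagttcgctcacctcCCTTTCTaactccgc
RPL22L1, chr3:170870181-170870210, minus strand: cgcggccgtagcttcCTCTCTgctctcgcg
RPS27, chr1:153990747-153990776, plus strand: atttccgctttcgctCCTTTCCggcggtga
RPS27L, chr15:63157463-63157492, minus strand: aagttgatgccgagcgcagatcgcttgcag
RPL3, chr22:39319609-39319638, minus strand: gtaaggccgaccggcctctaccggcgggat
RPL7L1, chr6:42879601-42879630, plus strand: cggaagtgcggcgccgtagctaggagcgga

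The run was 11 bases long in RPL35, RPLP1 and RPS3, 12 in RPL26, 9 in RPS6 and 5 in RPL41. A RefSeq start was listed for 69 members. Of these, 48 (69.6%) had a pyrimidine start by this definition, against 922 of 15232 other protein-coding genes (6.05%) and 1404 of all 27305 genes listed (5.14%). Among the 11 members with several listed starts, 1 start with the motif was enough to count. The start is an annotated position and was not measured in these cells, and a missing run says only that these letters are not at the listed base.

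The members lay on 22 chromosomes. Their median coding length was 462 nt, from 75 nt for RPL41, which encodes a peptide on the large subunit, to 1281 nt for RPL4. The median over all annotated protein-coding genes was 1266 nt. The annotation was GENCODE 29 on GRCh38.

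Libraries held 16312600 to 19479416 counts in genes, mitochondrially encoded genes took 3.19 to 3.71% of counts, and no pair of libraries was identical. Epithelial keratins were abundant (KRT8 at a mean of 6764 CPM, counts scaled to a common library size), but EPCAM was at 0.0728 CPM and the stromal genes COL1A1 and LUM were at 2797 and 1154 CPM, so the epithelial label did not hold for every marker. Of 6 immune markers 5 were under 1 CPM, with CD14 the exception, and of 4 endothelial markers 2 were. The summed level of 7 epithelial markers was 12260 to 13450 CPM in the CDD-3013 libraries and 8122 to 10650 CPM in the other 8. KRT8, KRT18 and KRT19 (means of 6764, 2047 and 1123 CPM) made up nearly all of this sum, and MUC1 followed at 11.3 CPM.

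The level of the family was not the same in replicate libraries, which bears on every comparison below. As a share of a library's counts, the 86 members took 3.36 and 3.92% in vehicle replicates 1 and 2, and 3.16 and 3.25% with IL1β. With 1 µM CDD-2728 the shares were 4.17 and 3.38%, and with 10 µM CDD-2728 3.64 and 3.73%. With CDD-3013 they were 4.53 and 5.36%, the highest of the 10 libraries. The CDD-3013 pair lay above all other libraries, while the 1 µM CDD-2728 pair lay far apart and overlapped the vehicle and 10 µM CDD-2728 pairs. The pair with IL1β alone, to which each inhibitor group is compared below, lay under all other libraries. Group means ± SD (n = 2) were 3.64 ± 0.397% for vehicle, 3.20 ± 0.0601% for IL1β, 3.78 ± 0.558% and 3.68 ± 0.0629% for 1 and 10 µM CDD-2728, and 4.94 ± 0.586% for CDD-3013. An exact two-sided permutation test of 2 against 2 libraries cannot give a p below 0.33, so shares are described without a test. A share of counts cannot tell more ribosomal protein RNA from less of other RNA.

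**Figure D1:**
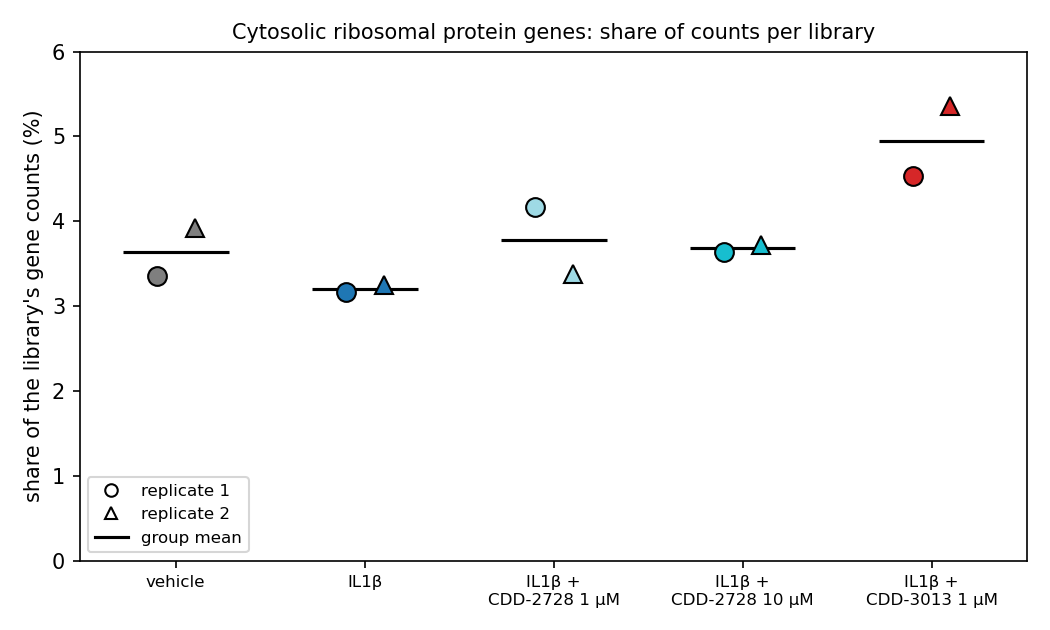
Share of each library's gene counts (%, vertical axis) taken by the 86 ribosomal protein genes in the 5 groups, with replicate 1 as circles, replicate 2 as triangles and the group mean as a line. The CDD-3013 libraries (4.53 and 5.36%) lie above the other 8, and the 1 µM CDD-2728 replicates (4.17 and 3.38%) lie far apart.

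In 3 of the 5 groups nearly all members moved together between replicates. With 1 µM CDD-2728, 80 of 82 members were higher in replicate 1 than in replicate 2, by a median of 0.35 on the log2 scale of CPM. In the CDD-3013 group 0 of 82 were higher in replicate 1, with a median difference of -0.29. The vehicle pair had 2 of 82 higher in replicate 1 and a median of -0.25. In the pairs with IL1β alone and with 10 µM CDD-2728 the medians were -0.05 and -0.04, and 20 and 23 of 82 members were higher in replicate 1. Nuclear respiratory chain genes moved with them between replicates, by a median of -0.20 in vehicle, 0.29 with 1 µM CDD-2728 and -0.22 with CDD-3013. Other genes with a coding length over 2400 nt moved the other way, by 0.07, -0.11 and 0.06 in those groups. The part of this library-to-library variation in the differences between groups was not tested.

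**Figure D2:**
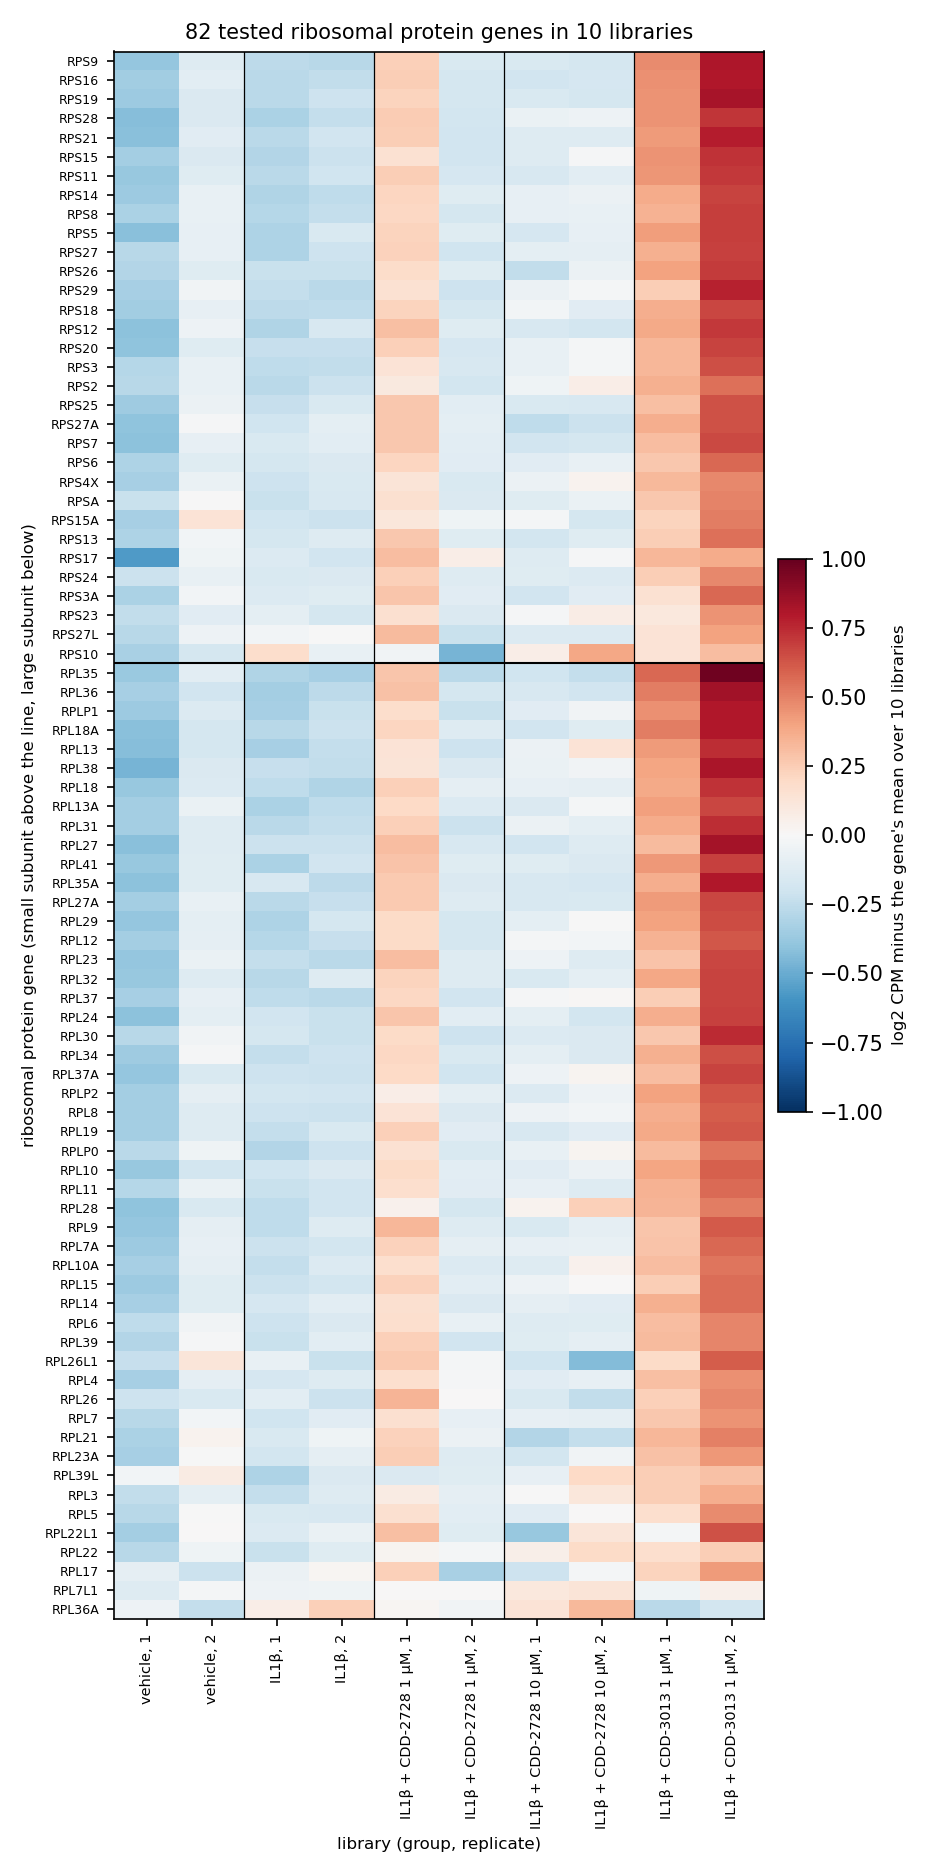
Log2 CPM of each of the 82 tested ribosomal protein genes (rows, small subunit above the black line) in each of the 10 libraries (columns) minus the gene's own mean over libraries, red for higher and blue for lower. Whole columns share a colour, including a difference between replicates 1 and 2 of 1 µM CDD-2728, and RPL7L1 and RPL36A at the bottom stand out from the CDD-3013 columns.

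Levels are given per kilobase of coding length, in CPM per kilobase, so that genes can be compared. RPL41 had the highest level at 5568, followed by RPLP1, an acidic protein of the stalk that recruits elongation factors, at 3015 and RPS2, at the messenger entry of the small subunit, at 2350. RPLP0, the base of the stalk, was at 2204 and RPL8 at 2255. The lowest levels among tested members were those of RPS10 (3.66), RPL36A (8.83) and RPL17 (18.9). All of these genes overlap others in the annotation, and the part of this in their low values was not tested. RPS10 shared 39.4% of its exonic bases with the read-through gene RPS10-NUDT3, RPL17 shared 32.7% with RPL17-C18orf32 and small nucleolar RNA genes, and RPL36A shared 8.40% with RPL36A-HNRNPH2. The counting of reads that fall in more than 1 gene is not given in the sources used here. RPS10 had 21 to 39 counts per library and RPS10-NUDT3 had 0 in each, and RPL36A had 52 to 78 against 0 for RPL36A-HNRNPH2. RPL17 had 134 to 220 against 0 to 4 for RPL17-C18orf32. The levels of RPS10, RPL36A and RPL17 are reported as uncertain.

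Of the 5 tested paralogs of core members, 4 were less abundant per kilobase than their counterpart. RPL22L1 was at 21.3 CPM per kilobase and RPL22, whose product also binds RNA outside the ribosome, at 175.5. RPS27L was at 289.6 and RPS27, a zinc-binding protein of the small subunit, at 793.6. RPL39L, best known from the testis, was at 68.9 and RPL39 at 979.9. For RPL26, at the exit of the peptide tunnel, the order was the reverse, with 55.8 for RPL26 and 95.5 for RPL26L1. RPL26 shared 14.3% of its exonic bases with AC135178.2 on the same strand, so its level and this order are reported as uncertain. RPL7L1 was at 265.3 and RPL7 at 1088. Annotated pseudogenes of the family, which share much of its sequence, took 0.034 to 0.052% of counts in each library. How reads mapping to several places were counted is not given in the sources used here.

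With IL1β alone no difference from vehicle was detected in the family. No member was called by edgeR's quasi-likelihood test at an adjusted p under 0.05, against a background of 17.6% of all tested genes called higher and 15.0% called lower. At an unadjusted p under 0.05 the count was also 0, and DESeq2 called 0. The median log2 fold change of the 82 members was 0.01, with a range from -0.25 (RPL39L) to 0.30 (RPS10), beside a median of -0.01 over all genes. On the scaled CPM the 2 vehicle libraries bracketed those with IL1β. Members were lower than IL1β replicate 1 in the first vehicle library, by a median of 0.11, and higher in the second (median of IL1β replicate 1 minus it, -0.15). As shares of counts, both IL1β libraries lay below both vehicle libraries. Both IL1β libraries lay above both vehicle libraries for 4 members, against 33.0% of all genes, and below for 1, against 33.7%.

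The value depends on scaling. Scaling by library totals in place of TMM factors shifted the median of all genes in this comparison to -0.18, put the members' median at -0.17 and called 7 members lower. Relative to all genes the members therefore stayed close to the middle under both scalings.

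RPLP0 read 1713 and 2001 CPM in vehicle and 1686 and 1790 CPM with IL1β. RPS6, a target of S6 kinase on the small subunit, read 302.6 and 343.4 CPM in vehicle and 331.6 and 337.6 CPM with IL1β. The IL1β values of RPS6 lay between its vehicle values, and for RPLP0 1 IL1β library lay below both vehicle libraries and the other between them.

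Other genes around the ribosome were called as follows with IL1β, to be read against the 17.6% of all genes called higher and 15.0% called lower. Of 44 ribosome biogenesis genes, 16 were called higher and 2 lower (median log2 fold change 0.14), among them the nucleolar helicase DDX21, higher by 0.81. Of 19 regulators of ribosomal protein synthesis, 3 (15.8%) were called higher and 2 (10.5%) lower, shares below those of all genes. A further list held translation factors and other genes chosen for the pyrimidine motif, whose start sites are not given here. Of its 16 tested genes, 4 were called higher and 0 lower.

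CDD-3013 at 1 µM with IL1β, compared with IL1β alone, was accompanied by higher levels of nearly the whole family. Of 82 tested members 76 were called higher and 0 lower by edgeR at an adjusted p under 0.05, where 19.0% of all tested genes were called higher and 17.3% lower. The median log2 fold change was 0.70, a 1.63-fold difference, with a range from -0.38 to 1.10, beside a median of -0.01 over all genes. Both CDD-3013 libraries lay above both IL1β libraries for 79 members, against 33.8% of all genes, and below for 1, against 34.0%. The 4 comparisons of single libraries gave medians of 0.53 to 0.86. Leaving out 1 library at a time gave 72 to 78 members called higher, and 70 of the 76 were called in all 4 of these fits. The summed epithelial markers, nearly all of them keratin counts, were also higher in the CDD-3013 libraries, by the values given above. Their part in the result was not tested. In bulk samples, a change in the RNA per cell and a change in which cells are present cannot be told apart.

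**Figure D3:**
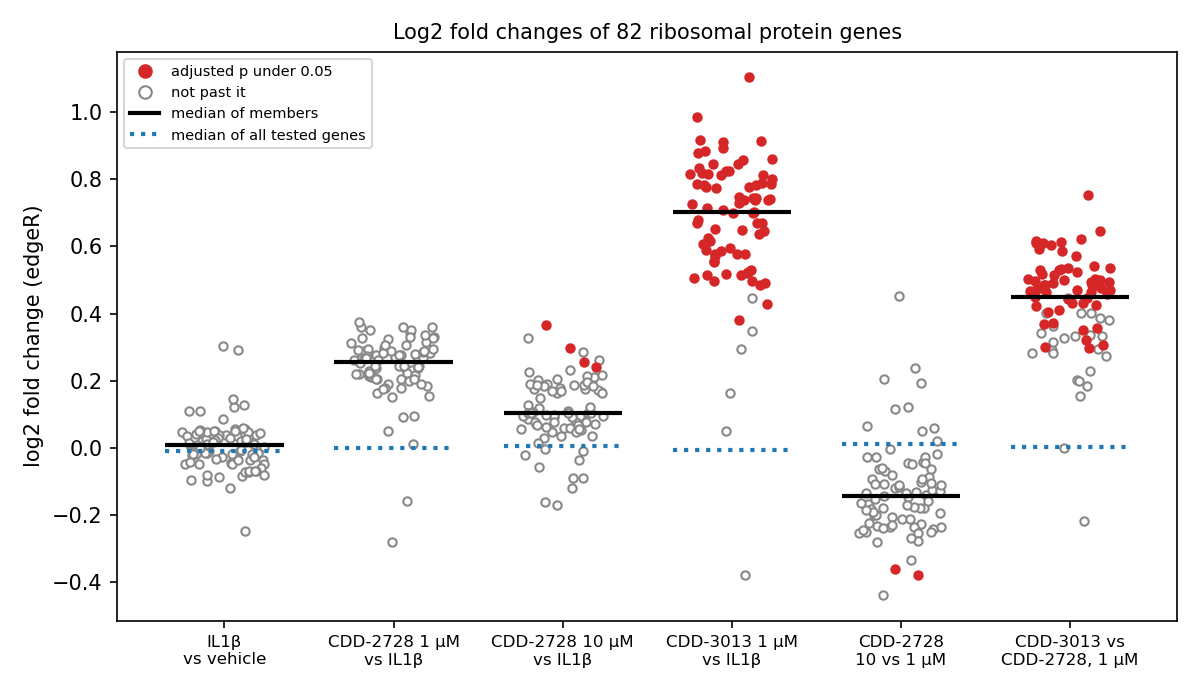
Log2 fold change (vertical axis) of each of the 82 tested ribosomal protein genes in 6 comparisons, in red where the adjusted p of edgeR was under 0.05, with the members' median in black and the median of all tested genes dotted. The cloud for CDD-3013 against IL1β is centred at 0.70 and that for IL1β against vehicle at 0.01.

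Messengers of the stalk proteins, to which translation factors bind, rose with CDD-3013. RPLP1 read 792.7 and 855.5 CPM with IL1β and 1367 and 1736 CPM with CDD-3013, higher by 0.91 ± 0.129 on the log2 scale (SE, n = 2 against 2; edgeR adjusted p = 0.000148). RPLP2, its partner, had the smallest adjusted p of the family (4.45e-06), going from 300.4 and 299.3 to 450.9 and 529.7 CPM. RPLP0 went from 1686 and 1790 to 2571 and 2990 CPM, higher by 0.68 ± 0.098 (adjusted p = 3.97e-05). In all of these the CDD-3013 pair lay clear of the IL1β pair, and replicate 2 of CDD-3013 was the higher one.

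The largest differences were those of RPL35 and RPL36. RPL35 sits by the exit of the peptide tunnel, where it helps dock factors that handle the new chain. It read 444.9 and 435.9 CPM with IL1β and 816.7 and 1077 CPM with CDD-3013, higher by 1.10 ± 0.155 (adjusted p = 0.00014, 2.15-fold). RPL36 read 172.2 and 181.1 CPM with IL1β and 310.4 and 389.6 CPM with CDD-3013, higher by 0.99 ± 0.13 (adjusted p = 8.55e-05). Its annotated exons overlap HSD11B1L over 17.6% of their bases. For RPL35 the vehicle values were 424.2 and 508.7 CPM, so the CDD-3013 pair lay above both groups.

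On the small subunit 30 of 32 tested members were called higher, with a median of 0.74. RPS2 went from 1684 and 1745 to 2595 and 2974 CPM, higher by 0.70 ± 0.092 (adjusted p = 1.15e-05). It overlaps another gene and small nucleolar RNA genes over 25.6% of its exonic bases. RPS3, a protein of the messenger entry site with a role in DNA repair, went from 772.2 and 776.1 to 1159 and 1435 CPM, higher by 0.74 ± 0.104. RPS6 went from 331.6 and 337.6 to 449.8 and 557.1 CPM, higher by 0.59 ± 0.107 (adjusted p = 0.000612). RPSA, which is also known as a laminin receptor, was higher by 0.58 and RPS27A, made as a fusion with ubiquitin, by 0.65.

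On the large subunit 46 of 50 were called higher, with a median of 0.69. RPL13A, which can leave the ribosome and block translation of inflammatory messengers, went from 637.9 and 667.9 to 1053 and 1259 CPM, higher by 0.82 ± 0.118 (adjusted p = 0.000156). RPL8, in the core of the large subunit, went from 1477 and 1466 to 2197 and 2593 CPM, higher by 0.70 ± 0.092 (adjusted p = 1.28e-05). RPL5 and RPL11, which form a particle with the 5S RNA, were higher by 0.48 and 0.67. RPL41 went from 326.1 and 355.9 to 547.9 and 651.9 CPM. RPL3, close to the site of peptide bond formation, rose less than the median, from 832.2 and 896.1 to 1167 and 1260 CPM, by 0.49 ± 0.082 (adjusted p = 4.67e-05).

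The 6 members not called were RPL36A, RPL7L1, RPS10, RPS27L, RPL17 and RPL22L1. Among them RPL7L1 is abundant enough for a narrow estimate. It read 195.2 and 197.3 CPM with IL1β and 196.5 and 209.7 CPM with CDD-3013, a log2 difference of 0.05 with a 95% interval from -0.12 to 0.22 (adjusted p = 0.599). Its product resembles RPL7, but acts in ribosome assembly. RPS27L had a value of 0.29 (interval -0.01 to 0.60), while its core counterpart RPS27 was higher by 0.79. RPL36A read 3.91 and 4.39 CPM with IL1β and 3.09 and 3.29 CPM with CDD-3013, a difference of -0.38 (interval -0.88 to 0.12), at 52 to 78 counts per library. Of the 5 tested paralogs, 2 were called higher, RPL26L1 (0.56) and RPL39L (0.50).

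RPL39L was called on few counts and did not keep its direction. Its value was -0.01 with offsets for coding length and GC content, and its adjusted p was 0.104 without IL1β replicate 1. Among the 10 tested members under 50 CPM, 6 were called higher, and among the 72 at or above 50 CPM, 70 were.

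Some proteins of the cytosolic ribosome are left out by the symbol rule. Among them FAU was called higher with CDD-3013 by 0.88, the scaffold protein RACK1 by 0.55 and RPL36AL by 0.45. The list of translation factors and other genes chosen for the pyrimidine motif had 11 of 16 called higher and 1 lower (median 0.23). The elongation factor subunit EEF1B2 was higher by 0.57 and the importin IPO5 was lower, at -0.25. Of 44 ribosome biogenesis genes 21 were called higher and 2 lower (median 0.17). Of 19 regulators 5 (26.3%) were called higher and 4 (21.1%) lower. In this comparison 19.0% of all tested genes were called higher and 17.3% lower. The mTOR-controlled translation repressor EIF4EBP1 was called higher, by 0.63, and EIF4EBP2 from the same list was called lower, at -0.41.

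Other families also had members called higher in the same comparison. Mitochondrial ribosomal protein genes had 54 of 77 called higher and 0 lower (median 0.46), nuclear respiratory chain genes 59 of 74 higher and 1 lower (median 0.53), and proteasome subunit genes 26 of 37 higher and 0 lower (median 0.32). Of 75 tested ribosomal protein pseudogenes, 15 (20.0%) were called higher and 1 (1.33%) lower, with a median of 0.42 and 51 above 0. Over all tested genes 19.0% were called higher and 17.3% lower, with a median of -0.01. The pseudogene share called higher was near that of all genes, but the share called lower was smaller and the median was higher. The cytosolic ribosomal proteins had the largest median of these families. No test of the difference between families was made.

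**Figure D4:**
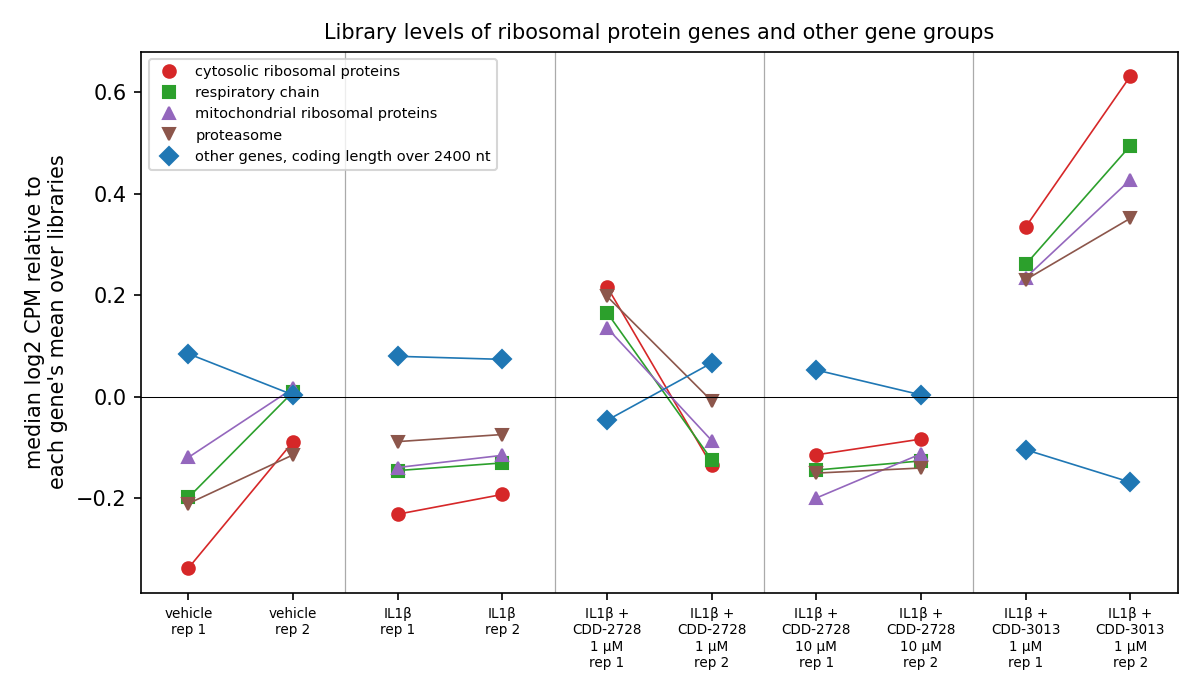
Median log2 CPM relative to each gene's mean over the 10 libraries (vertical axis) for ribosomal protein genes, 3 other families and other genes with a coding length over 2400 nt, with replicates of a group joined by a line. The first 4 families are all highest in the CDD-3013 libraries and all differ in the same direction between the replicates of 1 µM CDD-2728, with ribosomal proteins at -0.34 in vehicle replicate 1 and 0.63 in CDD-3013 replicate 2, and the long genes are lowest in the CDD-3013 libraries.

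Coding length went with the size of the difference among all other genes. Other protein-coding genes of up to 600 nt had 660 of 1589 called higher and 108 lower with CDD-3013 (median 0.27), and those over 2400 nt had 143 of 2803 called higher and 1089 lower (median -0.20). Between these, the medians were 0.15 for 600 to 1200 nt and -0.02 for 1200 to 2400 nt. Members stood above the other genes of their length: the median was 0.78 for the 17 members of up to 350 nt against 0.39 for 412 other genes. For 350 to 600 nt the medians were 0.71 for 42 members and 0.24 for 1177 others. Members over 600 nt had a median of 0.61, with 22 of 23 called higher. Among abundant genes the gap was similar: 249 other genes of up to 600 nt and at least 100 CPM had a median of 0.27.

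**Figure D5:**
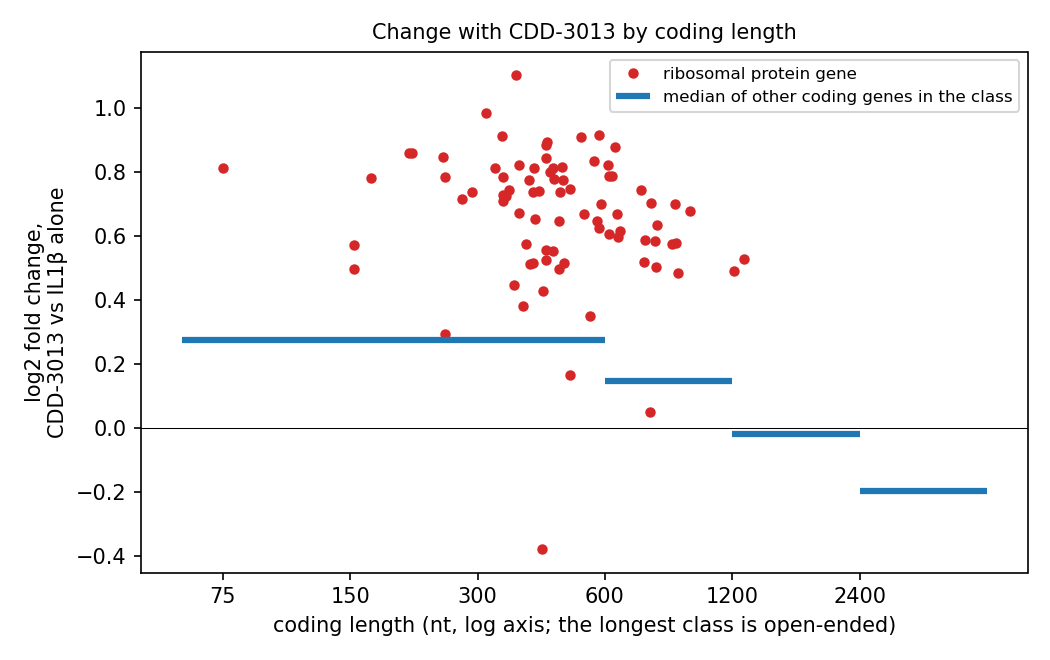
Log2 fold change of CDD-3013 against IL1β (vertical axis) by coding length (nt, log axis) for each tested ribosomal protein gene (red), with the median of other protein-coding genes per length class in blue. Blue medians fall from 0.27 in the shortest class to -0.20 in the longest, and most red points lie above the blue line at their length.

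A fit in which each library's own trend of counts on length and GC content was removed left a smaller difference. With transcript length, 72 members were called higher and the median was 0.50. With coding length, an alternative chosen after seeing the data, 71 were called and the median was 0.41. Of the 76 members, 57 were called higher under each of the 3 fits with such offsets. Whether RNA integrity or library preparation differed between these libraries was not tested.

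The pyrimidine start divided the members as follows. Of 47 tested members with it, 44 were called higher (median 0.73), and of 19 whose listed start lacked it, 16 were (median 0.62). Other genes of up to 600 nt had medians of 0.34 with the motif (53 of 95 called higher) and 0.28 without it (496 of 1180). The difference between these classes was not tested.

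CDD-2728 at 1 µM, the matched dose, gave values between these. No member was called by edgeR at an adjusted p under 0.05, where 2.03% of all genes were called higher and 2.56% lower. At an unadjusted p under 0.05 the count was 41 of 82, and DESeq2 called 0. The count of members called higher was 38 without the filter on low counts, 6 with coding length and GC offsets and 5 with only the 4 libraries compared. The median log2 difference from IL1β alone was 0.26, with a range from -0.28 (RPS10) to 0.38 (RPL36), beside 0.00 over all genes. Both libraries lay above both IL1β libraries for 68 members, against 23.4% of all genes, and below for 1, against 24.5%.

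The 2 replicates differed widely. Replicate 1 of 1 µM CDD-2728 was above the IL1β libraries by medians of 0.44 and 0.39, and replicate 2 by 0.09 and 0.04. Without replicate 2 the test called 62 members higher, and without replicate 1 it called 0, with a median of 0.07. RPL35 read 666.2 and 456.3 CPM in the 2 replicates, against 444.9 and 435.9 CPM with IL1β. For this gene the second replicate lay close to IL1β alone, and the first lay between the IL1β and the CDD-3013 pairs.

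At 10 µM CDD-2728 the family was only slightly above IL1β alone. Of 82 members 4 were called higher and 0 lower, where 15.6% of all genes were called higher and 15.9% lower. The median was 0.10, with a range from -0.17 (RPL21) to 0.37 (RPL28). Both libraries lay above both IL1β libraries for 59 members, against 34.2% of all genes, and below for 4, against 33.6%. RPL28 went from 302.6 and 316.6 to 371.3 and 426.9 CPM, higher by 0.37 ± 0.093 (adjusted p = 0.00539). RPL22 went from 57.3 and 61.5 to 69.7 and 76.3 CPM, higher by 0.30 ± 0.091 (adjusted p = 0.00996). RPL3 was higher by 0.24 and RPS2 by 0.26, and the pairs of libraries did not overlap for any of these 4.

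The 4 calls were not firm. Leaving out IL1β replicate 1 or CDD-2728 10 µM replicate 2 gave 0 calls, and 0 of the 4 were kept in all fits with 1 library left out. A fit of only the 4 libraries compared called 31 members higher and 1 lower.

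Other gene lists at this dose are read against the same 15.6% of all genes called higher and 15.9% called lower. Of 44 biogenesis genes 15 were called lower and 2 higher (median -0.14), including SBDS, which releases a factor that keeps the subunits apart, at -0.60, and UBTF, an RNA polymerase I factor, at -0.47. Of 19 regulators 10 were called higher and 1 lower, among them the mTOR inhibitors DDIT4 (1.75) and SESN2 (0.86). These were not particular to this dose. Both were also called higher with IL1β against vehicle (2.32 and 0.32) and with CDD-3013 against IL1β (0.70 and 0.26). Of 37 proteasome subunits 0 were called higher and 7 (18.9%) lower, the latter a share near that of all genes.

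Between the doses of CDD-2728 few members differed. At 10 µM against 1 µM, 0 were called higher and 2 lower, where 13.3% of all genes were called higher and 13.8% lower. Those 2 were RPL26 and RPL21. RPL26 read 30.2 and 24.0 CPM at 1 µM and 21.5 and 20.2 CPM at 10 µM, a difference of -0.38 ± 0.117 (adjusted p = 0.0193). RPL21 read 187.8 and 153.5 CPM at 1 µM and 130.3 and 135.6 CPM at 10 µM, a difference of -0.36 ± 0.113 (adjusted p = 0.03).

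The median over members was -0.14, with 5 members above and 15 below without overlap of the libraries, against 31.6% and 29.6% of all genes. It too differed by replicate of 1 µM CDD-2728: the 10 µM libraries had medians of -0.32 and -0.29 relative to its replicate 1 and of 0.02 and 0.06 relative to its replicate 2. Without 1 µM replicate 2, 47 members were called lower, and without replicate 1, 0 were called lower and 1 higher. RPL26 and RPL21 remained called under the 3 fits with length and GC offsets, but neither in every fit with 1 library left out.

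At the shared dose of 1 µM, members were higher with CDD-3013 than with CDD-2728. Of 82 members 57 were called higher and 0 lower, where 9.85% of all genes were called higher and 8.02% lower. The median log2 difference was 0.45, with a range from -0.22 (RPL36A) to 0.75 (RPL35). Both CDD-3013 libraries lay above both CDD-2728 libraries for 70 members, against 28.3% of all genes, and below for 1, against 27.2%. RPL35 was higher by 0.75 ± 0.154 (adjusted p = 0.006), RPLP1 by 0.65 ± 0.129 and RPLP2 by 0.53 ± 0.086 (adjusted p = 0.000906). RPS3 read 1008 and 823.3 CPM with CDD-2728 and 1159 and 1435 CPM with CDD-3013, higher by 0.50 ± 0.104 (adjusted p = 0.00475).

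Where the compounds did not differ past the threshold, the intervals were of different width. RPL7L1 differed by 0.00 (95% interval -0.17 to 0.17), so a difference of the size seen in most members lay outside its interval. RPL26 differed by 0.18 (-0.05 to 0.42), RPS27L by 0.20 (-0.11 to 0.51) and RPL22L1 by 0.23 (-0.21 to 0.68), and these intervals hold both 0 and values near the family's median. RPL5 missed the threshold at an adjusted p of 0.0922, with an interval from 0.05 to 0.54.

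The difference between the compounds varied with the libraries. Library by library, the median was 0.14 and 0.41 against CDD-2728 replicate 1 and 0.49 and 0.75 against replicate 2. Without CDD-2728 replicate 2 the count called higher was 12, and without CDD-3013 replicate 2 it was 17. Without replicate 1 of either compound it was 73 (CDD-2728) or 71 (CDD-3013). With transcript length and GC offsets it was 12. Under every alternative tried, 3 members stayed called higher with CDD-3013: RPLP1, RPS26 and RPS3. RPS26, which binds the messenger next to the exit site, read 225.9 and 182.5 CPM with CDD-2728 and 262.0 and 323.2 CPM with CDD-3013. It is named because it was 1 of these 3, after its values were seen.

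Side by side, and sharing the IL1β libraries as their reference, the medians against IL1β alone were 0.70 for 1 µM CDD-3013, 0.26 for 1 µM CDD-2728 and 0.10 for 10 µM CDD-2728. For RPL35 these differences were 1.10, 0.35 and 0.10, for RPS6 0.59, 0.22 and 0.07, and for RPL22 0.38, 0.18 and 0.30. For RPL7L1 they were 0.05, 0.05 and 0.16.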

How the data were processed

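The deposited table holds raw counts per gene, whole numbers that the authors made with fastp, STAR and featureCounts on hg38, per the submitters' processing notes; no source used here gives their versions, the annotation release or the settings for strand and multi-mapping reads. Symbols were matched to 61918 identifiers with version and 754 without, and 78 had none. Counts were filtered with filterByExpr (at least 10 counts, by group), scaled with TMM and fitted with edgeR 4.0.16 (R 4.3.3) quasi-likelihood, all 10 libraries in 1 group-means model, with Benjamini-Hochberg adjustment over 15740 genes and a threshold of 0.05. CPM are TMM-scaled. SE are Wald estimates from the moderated quasi-likelihood variance, and intervals are 95% without adjustment. The code was tested on simulated data. Alternatives were DESeq2 1.42.0, other scalings, other filters, only the 4 libraries compared, length and GC offsets, a replicate block and each library left out.

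Named members were the 3 with the smallest adjusted p in each direction, the 2 highest and 2 lowest fold changes, the 3 highest and lowest levels per kilobase, and a list chosen for known biology; RPL4, RPL7, RPL39 and RPS26 appear only for a sequence, a level, a length or a count of 5 or fewer. The members and gene lists were chosen with earlier results of these data known. Start sequences came from RefSeq.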

Additional observations from a re-analysis of the deposited data

How the results depend on the processing

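For CDD-3013 against IL1β the number of members called higher stayed within 1.5 times of 76 under all 15 alternatives, and 57 members were called in each. The median fell from 0.70 to 0.50 with transcript length and GC offsets, 0.49 with these and the replicate block, and 0.41 with coding length and GC offsets; without 1 library it was 0.56 to 0.83 (72 to 78 called). RPL39L reversed to -0.013 with coding length and GC offsets. For CDD-3013 against CDD-2728 the count of 57 became 12 with transcript length and GC offsets, with or without the replicate block, and 12 to 73 without 1 library (median 0.28 to 0.64); with coding length and GC offsets the median was 0.26. For 1 µM CDD-2728 against IL1β the count of 0 called higher became 38 without the filter on low counts, 5 with only the 4 libraries compared, 6 with coding length and GC offsets, and 0 to 62 without 1 library (median 0.07 to 0.43). For 10 µM CDD-2728 against IL1β the 4 called higher became 11 with library totals, 14 without the filter, 31 (and 1 lower) with only the 4 libraries compared, 18 with coding length and GC offsets, and 0 to 3 without 1 library. For 10 against 1 µM CDD-2728 the 0 higher and 2 lower became 2 and 1 with library totals, 1 and 17 without the filter, 0 and 4 with only the 4 libraries compared, and 4 and 6 with coding length and GC offsets; without 1 library they were 0 to 1 higher and 0 to 47 lower (median -0.32 to 0.043). For IL1β against vehicle, library totals gave 7 called lower (median -0.17), and 1 member was called higher with transcript length and GC offsets, with these and the replicate block, and with coding length and GC offsets. Shares of a smaller total are higher by definition, and they were so in every group. Less mitochondrial counts, they were for example 3.31% (IL1β) and 3.81% (10 µM CDD-2728), and of protein-coding counts 3.27% and 3.76%. The cause of the shifts in calls and medians was not tested.

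No pairing by replicate number was seen: the correlation of the replicate difference between groups was -0.11 to 0.06 over 10 pairs of groups. This correlation runs over all tested genes and cannot show whether equal replicate numbers shared a culture or batch. With the replicate block alone the members called were 76 for CDD-3013 against IL1β, 53 for CDD-3013 against CDD-2728, 4 and 0 for 10 and 1 µM CDD-2728, 2 for the doses and 0 for IL1β. Over single members, 2647 values kept direction and side of the threshold, 139 gained it and 81 lost it. At 2 libraries a group, precision did not follow level alone. For IL1β against vehicle the SE was 0.329 for RPS10 (mean of 1.81 CPM) and 0.118 for RPL26 (24.3 CPM). The SE of RPL35 (577 CPM) was 0.155.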
